A study of Caenorhabditis elegans with 33 samples.

Results

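DPY-27 was depleted from *C. elegans* larvae that lack CEC-4, and the control larvae lacked CEC-4 and grew on auxin as well. The comparison consists of 6 libraries, chosen by their labels from 33 libraries that cover 11 conditions of 7 strains. The 3 libraries of depleted larvae carry the labels *TIR-1; dpy-27::AID; cec-4* and auxin, and the 3 libraries of control larvae carry the labels *cec-4* and auxin. Both groups are whole L3 hermaphrodites that were grown from L1 for 24 hours on plates with 4 mM auxin, and both carry the deletion allele of *cec-4*. The depleted strain also holds an insertion of TIR-1, as the labels write the plant F-box protein TIR1 (not the worm gene *tir-1*), under the broadly active eft-3 promoter. Its *dpy-27* gene bears a tag with the auxin-inducible degron (AID). The *cec-4* strain has neither the transgene nor the tag, so on auxin alone their effects cannot be told apart from those of depletion. The same strains without auxin, 3 libraries of *TIR-1; dpy-27::AID; cec-4* and 3 of *cec-4*, were therefore set beside the comparison. Each strain is a single line, and nothing in the sources used here says whether the replicates of a condition were separate cultures. The p-values therefore rest on the spread between replicate libraries, which may be technical. In limma's test of single genes that spread was taken over all 33 libraries and not over the 6 compared alone.

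In *C. elegans*, XX hermaphrodites halve the output of both X chromosomes by means of the dosage compensation complex, which combines a condensin (condensin IDC) with recruiting proteins and a histone demethylase. DPY-27 is the condensin subunit particular to this complex, and auxin directs the plant F-box protein to the degron so that tagged DPY-27 is degraded. CEC-4 is a chromodomain protein of the nuclear periphery that anchors chromatin with methylated H3K9. The question was which genes and gene classes differ when DPY-27 is removed from larvae that already lack this anchor, with auxin held constant.

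Levels are in FPKM, fragments per kilobase of transcript after a scaling for library depth, and differences between groups are log2 fold changes of FPKM + 0.1, depleted minus control, with positive values higher in depleted larvae. A gene was called when its adjusted p-value in limma's test was under 0.05. The 6 libraries summed to 1.51 to 1.59 M FPKM, and 11907 to 12625 genes had an FPKM of at least 1. From the steps between low values, the depth of each was estimated at 17.1 to 23.8 M fragments, which is approximate because Salmon assigns fractions of fragments. Pearson correlations of log2 values across genes were 0.818 to 0.828 within depleted libraries and 0.839 to 0.869 within *cec-4* libraries, against 0.786 to 0.821 between the groups. Markers of body wall and pharyngeal muscle, neurons, larval epidermis and intestine were present in all 6 libraries, except that the intestinal filament gene *ifb-2* was listed at 0 in each and the neuronal *unc-13* in 1 library of each group. Yolk genes *vit-2*, *vit-5* and *vit-6* stayed at or under 0.67 FPKM, and the summed level of the early embryo factors *end-1*, *end-3*, *med-1* and *tbx-37* at or under 0.65 FPKM. The male switch gene *xol-1* was listed at 0 in all 6, and 25 of 31 major sperm protein genes were as well. Of 5592 genes whose median over the series reached 20 FPKM, 63 were listed at 0 in at least 1 of the 6 libraries, so a single 0 does not show that a gene was silent. Among libraries set beside the comparison, replicate 1 of *cec-4* without auxin stood apart with 385 FPKM of summed sperm genes, against 0 and 0.631 in its other replicates. Replicate 3 of *dpy-27::AID* on auxin stood apart on the X, as given with the results it touches.

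Depleted larvae had higher X-linked and slightly lower autosomal FPKM than *cec-4* larvae. FPKM are relative to the rest of a library, and the median over all genes tested was -0.05. Whether autosomal transcripts fell in absolute amount was not tested. Over 2061 X-linked genes the log2 fold change had a median of 0.70, and over 11236 autosomal genes one of -0.13. The difference of 0.83, termed X derepression, is a factor of 1.77. Of the X-linked genes, 1663 (80.7%) were above 0 and 647 (31.4%) were above 1, against 39.4% and 8.32% of autosomal genes. Medians of single autosomes lay between -0.15 and -0.10, and that of 12 mitochondrial genes was -0.15. In limma's test 633 of 13309 genes were called (4.76% of genes tested), and in 623 of these the libraries of both groups did not overlap. Over all genes tested, 13.1% were higher and 12.9% lower without overlap. On the X, 301 genes rose (14.6% of those tested) and 4 fell (0.194%). On the autosomes, 80 genes rose (0.712%) and 248 fell (2.21%). X-linked genes were 79.0% of the genes that rose and 15.5% of the genes tested.

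**Figure D1:**
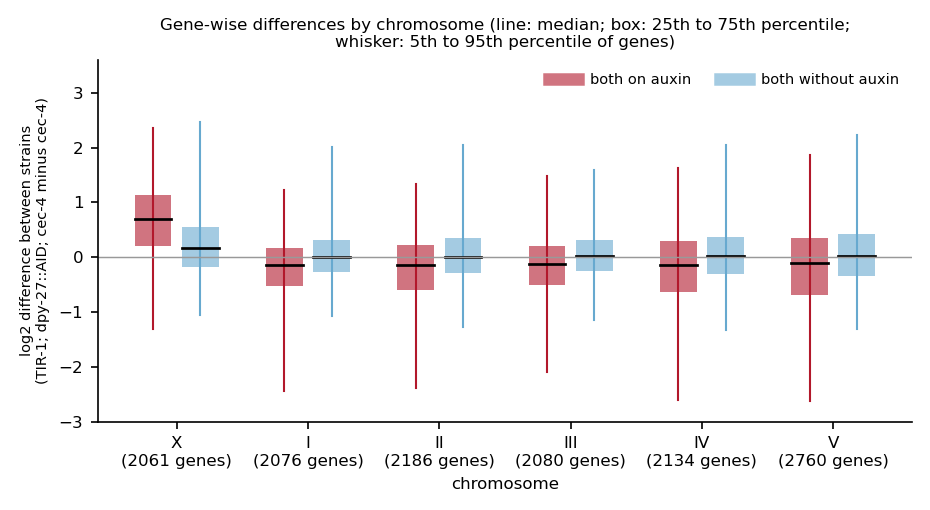
Log2 differences between *TIR-1; dpy-27::AID; cec-4* and *cec-4* larvae by chromosome, with both strains on auxin (red) or both without it (blue). Lines are medians, boxes the 25th to 75th percentile and whiskers the 5th to 95th percentile of genes. On auxin the median was 0.70 on the X and between -0.15 and -0.10 on each autosome, and without auxin it was 0.18 on the X.

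The rise on the X was spread along the chromosome and over genes of every level. In 9 windows of 2 Mb, each with 150 to 277 genes, the median log2 fold change lay between 0.60 and 0.81, and 9.62% to 18.5% of the genes rose. Among genes with a mean of 1 to 5 FPKM the X-linked median was 0.63 and the autosomal one -0.19, and among genes at 100 FPKM or more they were 0.67 for the X and -0.18 for autosomes. The share of X-linked genes called differed more than their medians, with 4 of 541 genes at 1 to 5 FPKM (0.739%) and 86 of 266 at 100 FPKM or more (32.3%). The count of called genes is therefore mostly a count of well expressed ones. Exon length made little difference, with X-linked medians from 0.68 to 0.74 in 4 classes. The 41 X-linked pseudogenes tested had a median of 0.68.

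Each library was given an X:A score, which subtracts the autosomal from the X-linked median of log2 values once the mean of all 33 libraries has been taken off each gene. The scores of the depleted larvae were 0.50, 0.63 and 0.62, and those of *cec-4* larvae -0.29, -0.27 and -0.27. All depleted libraries lay above all *cec-4* libraries, by 0.86 in the mean, with a p-value of 0.10 in a two-sided exact permutation test, the smallest that 3 libraries against 3 allow. Without auxin the scores were -0.12, -0.16 and -0.36 in *TIR-1; dpy-27::AID; cec-4* larvae and -0.33, -0.37 and -0.33 in *cec-4* larvae. These overlapped, with a difference of 0.13 (exact permutation test, p = 0.30). The strain difference was 0.73 larger on auxin than without it, with p = 0.09 over the 400 arrangements of strain labels within each treatment (exact permutation test). These arrangements assume no strain difference in either treatment, so this p-value does not separate the interaction from the strain difference on auxin.

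**Figure D2:**
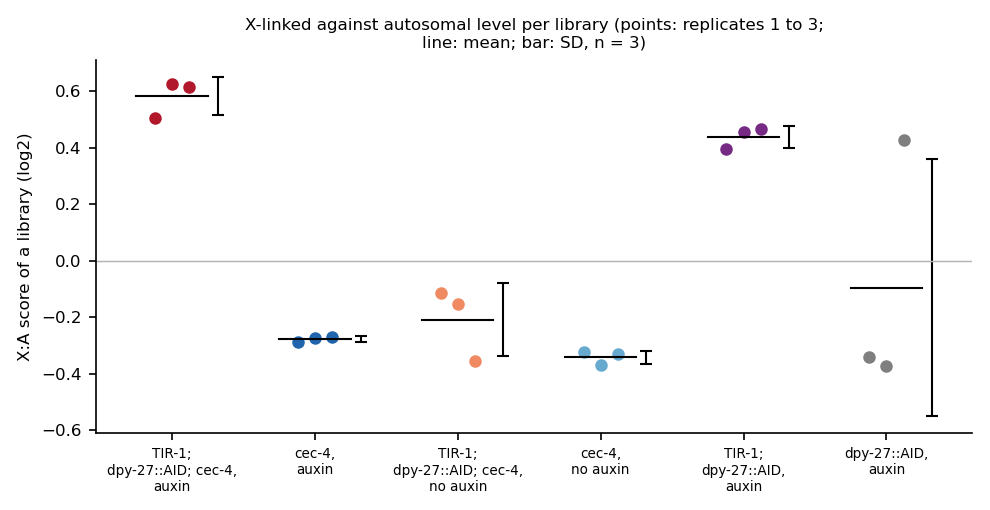
X:A score of each library (log2), which compares X-linked with autosomal levels, in 6 conditions. Points are replicates 1 to 3, lines means and bars SD. The depleted larvae at the left lie between 0.50 and 0.63, above the *cec-4* larvae at -0.29 to -0.27, and replicate 3 of *dpy-27::AID* on auxin lies at 0.43, apart from the other two.

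The X-linked genes that rose did so by a median of 1.18 on the log2 scale, or 2.26-fold, with a range from 0.61 to 8.05. The 8 with the smallest adjusted p-values among genes without overlap between groups are described first. Of these, *lec-8* (WBGene00002271, X from 9850571 to 9851336, WBcel235) encodes a galectin, a sugar-binding lectin. It was at 1374, 1384 and 1384 FPKM in depleted larvae and at 507, 259 and 224 FPKM in *cec-4* larvae (log2 fold change 2.16, SE 0.30, adjusted p = 0.000223). The 3 depleted libraries were nearly equal, while *cec-4* replicate 1 lay above its other replicates. The *glit-1* gene (WBGene00018878, X from 4712279 to 4715080) encodes a gliotactin homolog, a protein of the neuroligin-like family. Its levels were 63.9, 67.5 and 69.2 FPKM in depleted larvae against 20.0, 18.6 and 19.5 FPKM in *cec-4* larvae (log2 fold change 1.78, SE 0.25, adjusted p = 0.000223). For *fard-1* (WBGene00022200, X from 2933361 to 2937742), which encodes a fatty acyl-CoA reductase of ether lipid synthesis, the values were 105, 78.1 and 97.9 FPKM in depleted larvae and 22.1, 29.1 and 30.7 FPKM in *cec-4* larvae (log2 fold change 1.77, SE 0.24, adjusted p = 0.000223). In neither gene did a depleted library come near a control library. An abundant transcript, *fipr-21* (WBGene00009621, X from 10304529 to 10304867) of the fungus-induced peptide family, reached 5119, 5613 and 5583 FPKM in depleted larvae, against 1982, 1902 and 1837 FPKM in *cec-4* larvae (log2 fold change 1.51, SE 0.21, adjusted p = 0.000223).

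Of the other 4, *Y41G9A.10* had the largest fold change (X from 2945803 to 2946558), with 238, 452 and 422 FPKM in depleted larvae and 25.1, 12.9 and 10.7 FPKM in *cec-4* larvae (log2 fold change 4.55, SE 0.63, adjusted p = 0.000223). *T04F8.8* had 1662, 1931 and 2093 FPKM in depleted larvae and 359, 244 and 242 FPKM in *cec-4* larvae (log2 fold change 2.77, SE 0.40, adjusted p = 0.000283). *C16B8.3* also rose (log2 fold change 1.66, SE 0.24, adjusted p = 0.000236). All of these exceed the X-linked median of 0.70. *F22F4.4* stood apart, because it was higher in the strain without auxin too. It had 83.9, 90.5 and 121 FPKM in depleted larvae and 29.8, 43.4 and 32.7 FPKM in *cec-4* larvae (log2 fold change 1.48, SE 0.20, adjusted p = 0.000223). Without auxin it had 82.3, 62.0 and 86.5 FPKM in *TIR-1; dpy-27::AID; cec-4* larvae against 27.4, 35.2 and 39.5 FPKM in *cec-4* larvae (log2 fold change 1.18, adjusted p = 0.0202). All 8 kept their call in every alternative processing and with any 1 library left out. *F57G12.1*, an X-linked gene chosen by name, rose as well (log2 fold change 0.98, SE 0.19, adjusted p = 0.00479).

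**Figure D3:**
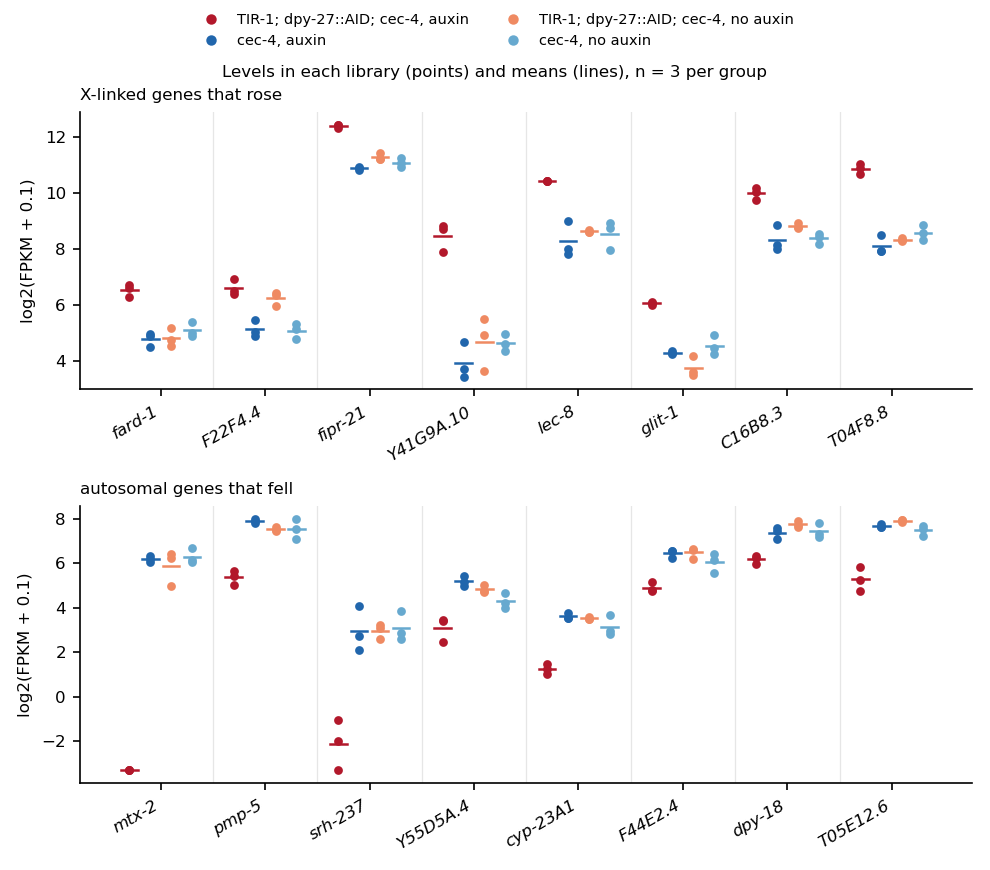
Levels of the X-linked genes that rose and the autosomal genes that fell with the smallest adjusted p-values, as log2(FPKM + 0.1) in each library (points) with means (lines, n = 3). Depleted larvae are in dark red and *cec-4* larvae on auxin in dark blue, and the paler points are the same strains without auxin. Of these genes *F22F4.4* was also called without auxin, at 82.3, 62.0 and 86.5 FPKM in *TIR-1; dpy-27::AID; cec-4* larvae and 27.4, 35.2 and 39.5 FPKM in *cec-4* larvae.

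Only 4 X-linked genes fell, and 2 of them encode cuticle collagens. Cuticle collagens are made by the epidermis in a pulse before every molt, and the furrow collagens *dpy-2*, *dpy-3*, *dpy-7*, *dpy-8*, *dpy-9* and *dpy-10* form the circumferential furrows of the cuticle. Loss of any of them gives a short, dumpy body. Of these 6, 5 fell, with 3 on autosomes and 2 on the X, and *dpy-8* did not pass the test (log2 fold change -1.65, SE 0.57, adjusted p = 0.0989). For *dpy-10* on chromosome II, levels were 43.1, 76.7 and 60.05 FPKM in depleted larvae and 120.1, 298 and 299 FPKM in *cec-4* larvae (log2 fold change -1.92, SE 0.47, adjusted p = 0.0184). X-linked *dpy-3* was at 70.9, 98.2 and 119 FPKM in depleted larvae and 174, 407 and 432 FPKM in *cec-4* larvae (log2 fold change -1.74, SE 0.48, adjusted p = 0.0336). In both genes the groups did not overlap, but *cec-4* replicate 1 was well under replicates 2 and 3. The other 3 that fell were *dpy-2* (-1.88 on the log2 scale), *dpy-9* (-1.63) and *dpy-7* (-1.52), where *dpy-9*, *dpy-7* and *dpy-8* were named after their values had been seen. The other X-linked genes that fell were *F21E9.2* (log2 fold change -2.10, SE 0.48, adjusted p = 0.0122) and *C11H1.5* (log2 fold change -3.26, SE 0.91, adjusted p = 0.0361). Without *cec-4* replicate 2 or without *cec-4* replicate 3, *dpy-3*, *F21E9.2* and *C11H1.5* all lost their calls, and 0 to 7 X-linked genes fell when 1 library was left out.

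The furrow collagen calls rest on single libraries. None was called when *cec-4* replicate 2, *cec-4* replicate 3, depleted replicate 1 or depleted replicate 3 was left out, 2 were called without depleted replicate 2, and all 6 without *cec-4* replicate 1. None was called when only the 6 libraries were fitted. The autosomal collagens stayed below 0, with a median between -2.27 and -1.68 over these 6 fits, against -1.88 with all libraries. Scored as a median over the 6 collagens, relative to the library's own X-linked or autosomal median, the depleted libraries scored -1.97, -1.41 and -1.58, and the *cec-4* libraries -0.52, 0.80 and 0.78. Without auxin the scores were 0.59, 0.54 and 0.10 in *TIR-1; dpy-27::AID; cec-4* larvae and 0.64, -0.80 and 0.79 in *cec-4* larvae. The depleted libraries were the lowest of the 12, and the other 9 spread from -0.80 to 0.80.

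Other genes of the molting epidermis had low medians in depleted larvae. In all, 8 of 117 cuticle collagens fell and 3 rose, where 4.76% of all genes were called. Without overlap between groups, 39 were lower and 22 were higher, where 12.9% and 13.1% of all genes were. Of the 8 that fell, 5 are the furrow collagens above, and of 99 genes of the *col* family 3 fell and 3 rose. The 97 autosomal collagens had a median of -0.73. Of those called, *col-133* had 0, 1.09 and 2.70 FPKM in depleted larvae and 13.1, 24.2 and 23.7 FPKM in *cec-4* larvae (log2 fold change -4.82, SE 1.03, adjusted p = 0.00742), while *col-150* rose, with 52.2, 34.0 and 43.5 FPKM in depleted larvae and 11.3, 5.74 and 7.47 FPKM in *cec-4* larvae (log2 fold change 2.42, SE 0.57, adjusted p = 0.0132). Without depleted replicate 1 both lost their calls, and *col-150* also without *cec-4* replicate 2 or 3. Among 12 other collagens that shape the body none was called by limma, although 9 had an unadjusted p-value under 0.05 and the median was -1.46. The precuticle is the transient matrix laid down under the old cuticle, and 2 of its 14 genes fell. They were *let-653*, which encodes a zona pellucida protein of narrow tubes, with 11.6, 16.0 and 10.5 FPKM in depleted larvae and 37.2, 45.4 and 35.1 FPKM in *cec-4* larvae (log2 fold change -1.63, SE 0.30, adjusted p = 0.00366), and *noah-2*, with 129, 134 and 127 FPKM in depleted larvae and 270.4, 481 and 488 FPKM in *cec-4* larvae (log2 fold change -1.62, SE 0.36, adjusted p = 0.00897). X-linked *let-4* and *sym-1*, which belong to the same matrix, were not called, with -0.57 (adjusted p = 0.430) for *let-4* and -0.68 (adjusted p = 0.300) for *sym-1* on the log2 scale. The X-linked precuticle genes had a median of -0.91, where the X-linked median of all genes was 0.70. With CEC-4 intact, in the pair given below, the autosomal medians were 0.39 for precuticle genes and 0.32 for furrow collagens. They were -1.45 for all autosomal cuticle collagens and -1.19 for hedgehog-related and patched-related genes. There *sym-1* was called as higher (log2 fold change 1.58, adjusted p = 0.0186 in limma's test), and *let-4* was at 1.26 without a call. Of the hedgehog-related family, which is large in nematodes and expressed in epidermis, *wrt-10* fell (log2 fold change -1.92, SE 0.41, adjusted p = 0.00741), with 121, 82.9 and 77.3 FPKM in depleted larvae and 250.1, 409 and 414 FPKM in *cec-4* larvae, and so did the patched-related *ptr-19* (-2.08) and *ptr-25* (-1.20), while X-linked *ptr-5* rose (0.90). Calls of *let-653* and *wrt-10* held with any 1 library left out, but *noah-2* lost its call without *cec-4* replicate 2 or 3, *ptr-25* without *cec-4* replicate 3, *ptr-19* without *cec-4* replicate 2 or 3, without depleted replicate 1 or 3 and in a fit of the 6 libraries alone, and *ptr-5* with any of the 6 libraries left out. None of 8 molting regulators was called by limma (2 at an unadjusted p-value under 0.05). The cuticlin list, of 26 proteins that form cuticular ridges and related matrices, had 1 gene that fell, *cutl-6* (log2 fold change -3.38, SE 0.97, adjusted p = 0.0424), with 0, 0.0508 and 1.26 FPKM in depleted larvae and 1.06, 4.16 and 4.57 FPKM in *cec-4* larvae, which overlap. This call was lost with a pseudocount of 1, without the filter on low values, in a fit of the 6 libraries alone, and without *cec-4* replicate 2 or 3 or depleted replicate 1 or 2. The epidermal markers *dpy-7*, *rol-6* and *sqt-3* are themselves cuticle collagens of the lists above, so they are no separate measure, and with the adult collagen *col-19* they had a summed level of 439 to 1313 FPKM in depleted larvae and 1334 to 3444 FPKM in *cec-4* larvae, and *col-19* was at or near 0 in all 6 libraries. In whole larvae, fewer cells of a type and less RNA per cell cannot be told apart. The phase of the molt at harvest was not measured in these libraries, and its part in these results was not tested. The part of the epidermal markers in these results was not tested.

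**Figure D4:**
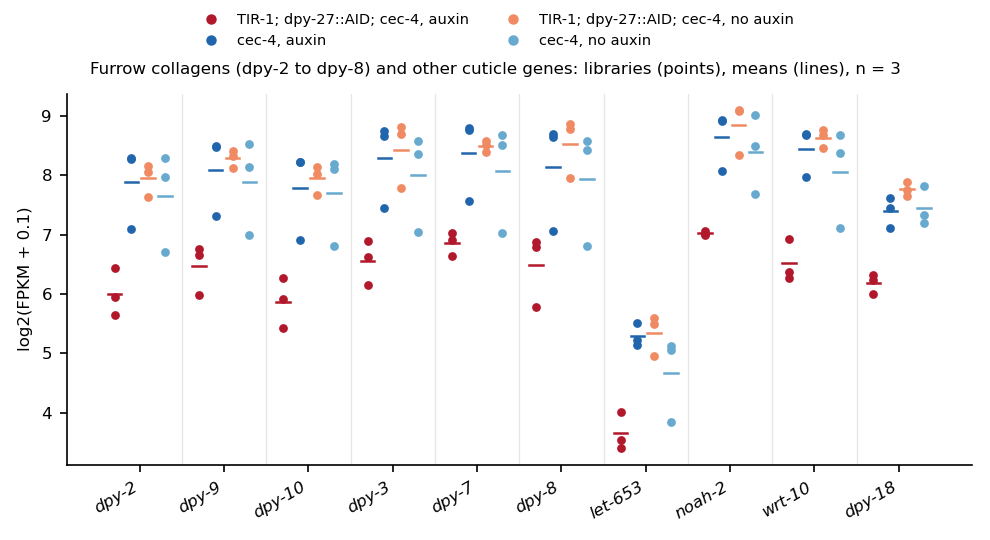
Levels of the 6 furrow collagens (*dpy-2* to *dpy-8* on the axis) and of *let-653*, *noah-2*, *wrt-10* and *dpy-18*, as log2(FPKM + 0.1) in each library (points) with means (lines, n = 3). In every gene the 3 depleted libraries (dark red) lie under the 3 *cec-4* libraries on auxin (dark blue), of which replicate 1 is the lowest in all 6 collagens.

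Autosomal genes that fell did so by a median of 1.51 on the log2 scale. The *dpy-18* gene (WBGene00001077, III from 11372886 to 11377980) encodes the catalytic subunit of the prolyl 4-hydroxylase that modifies collagens. It was at 80.1, 63.5 and 75.2 FPKM in depleted larvae and at 138, 196 and 175 FPKM in *cec-4* larvae (log2 fold change -1.21, SE 0.19, adjusted p = 0.000507), and unlike the furrow collagens it kept its call with any 1 library left out. Another, *pmp-5* (WBGene00004062, V from 6662191 to 6665813), encodes an ABC transporter of the peroxisomal membrane family. It had 32.7, 50.2 and 43.8 FPKM in depleted larvae and 228, 259 and 242 FPKM in *cec-4* larvae (log2 fold change -2.54, SE 0.36, adjusted p = 0.000223). *T05E12.6* was at 27.001, 38.6 and 56.3 FPKM in depleted larvae and 218, 202 and 201 FPKM in *cec-4* larvae (log2 fold change -2.41, SE 0.37, adjusted p = 0.000530), and the chemoreceptor gene *srh-237*, which lies 936 bases from it, was at 0.376, 0.150 and 0 FPKM in depleted larvae and 16.8, 4.18 and 6.55 FPKM in *cec-4* larvae (log2 fold change -5.10, SE 0.74, adjusted p = 0.000324). *Y55D5A.4* fell as well (log2 fold change -2.08, SE 0.31, adjusted p = 0.000370), and so did *F44E2.4* (log2 fold change -1.55, SE 0.23, adjusted p = 0.000470). The cytochrome P450 gene *cyp-23A1* was at 2.64, 2.29 and 1.94 FPKM in depleted larvae against 11.5, 11.5 and 13.7 FPKM in *cec-4* larvae (log2 fold change -2.37, SE 0.36, adjusted p = 0.000470). Where a group is close to 0, as for *srh-237*, the size of the fold change depends on the 0.1 added. For *mtx-2*, the metaxin 2 of the mitochondrial outer membrane, every depleted library was listed at 0, and the *cec-4* libraries at 73.7, 81.6 and 67.7 FPKM (adjusted p = 0.000223). Of the other 30 libraries, wild-type replicate 2 was also listed at 0, beside 104 and 71.4 FPKM in the other wild-type replicates, so a 0 for this gene is not limited to depleted larvae. Of the 633 called genes, 15 were listed at 0 in all depleted libraries and 7 in all *cec-4* libraries, and without these 22 genes 611 remain.

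Among autosomal genes that rose, *cri-2*, which encodes a tissue inhibitor of metalloproteases, was at 354, 527 and 450.1 FPKM in depleted larvae and 98.1, 139 and 103 FPKM in *cec-4* larvae (log2 fold change 1.96, SE 0.27, adjusted p = 0.000223). The transthyretin-like gene *ttr-18* had 2301, 2268 and 2202 FPKM in depleted larvae and 754, 649 and 561 FPKM in *cec-4* larvae (log2 fold change 1.80, SE 0.29, adjusted p = 0.000917), and the zinc metalloprotease gene *zmp-3* rose (log2 fold change 1.65, SE 0.30, adjusted p = 0.00260). The transcript of *suex-1* (II from 5497284 to 5498256) reached 229, 262 and 204 FPKM in depleted larvae, against 0, 0.276 and 0 FPKM in *cec-4* larvae (adjusted p = 0.00111). Without auxin it had 0.281, 5.70 and 0 FPKM in *TIR-1; dpy-27::AID; cec-4* larvae and 1.55, 0.345 and 0 FPKM in *cec-4* larvae. A neighbouring pair on chromosome I, *F30A10.11* (I from 9477459 to 9478151) and *F30A10.14* (I from 9476597 to 9477181), differed between the strains with and without auxin. *F30A10.11* was at 85.5, 63.0 and 95.2 FPKM in depleted larvae and listed at 0 in every *cec-4* library on auxin (adjusted p = 1.77e-07), and without auxin at 31.3, 28.5 and 2.87 FPKM in *TIR-1; dpy-27::AID; cec-4* larvae, with *cec-4* larvae again at 0. Over the series, *F30A10.14* was at 1.80 to 57.8 FPKM in all 12 libraries labelled with TIR-1 and listed at 0 in the other 21. *F30A10.11* was at 2.87 to 95.2 FPKM in the same 12 libraries and at 0 in 20 of the other 21, where its highest level was 0.988. Whether the strain held less DPY-27 without auxin was not measured in these libraries.

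Saposin-like and antimicrobial peptides are secreted in defence. Of 37 such genes 5 rose, 4 of 11 on the X (where 14.6% of all genes rose) and 1 of 26 on autosomes (0.712%), and 1 fell, and the median of the autosomal members was 0.53, against -0.13 for all autosomal genes. X-linked *cnc-8*, a caenacin, had 1941, 1695 and 1864 FPKM in depleted larvae and 678, 593 and 715 FPKM in *cec-4* larvae (log2 fold change 1.47, SE 0.30, adjusted p = 0.00645), and *cnc-10* on chromosome V had 529.7, 551 and 582 FPKM in depleted larvae and 265, 207 and 145 FPKM in *cec-4* larvae (log2 fold change 1.47, SE 0.33, adjusted p = 0.00963). The gene that fell was *cnc-3* (log2 fold change -1.33, SE 0.31, adjusted p = 0.0120), named after its values had been seen. The epidermal peptides *nlp-27*, *nlp-29* and *nlp-34* belong to a cluster on chromosome V whose products are named as neuropeptide-like but include peptides that the epidermis makes on fungal infection and wounding. The level of *nlp-27* was 890.5, 817 and 800.5 FPKM in depleted larvae and 278, 294 and 254 FPKM in *cec-4* larvae (log2 fold change 1.60, SE 0.31, adjusted p = 0.00429). For *nlp-29* the levels were 854, 1128 and 1204 FPKM in depleted larvae and 273, 226 and 267 FPKM in *cec-4* larvae (log2 fold change 2.04, SE 0.45, adjusted p = 0.00881), and for *nlp-34* they were 1206, 1356 and 1403 FPKM in depleted larvae and 294, 139 and 178 FPKM in *cec-4* larvae (log2 fold change 2.77, SE 0.77, adjusted p = 0.0358), both genes named after their values had been seen. In each of the 3 the lowest depleted library was above the highest *cec-4* library on auxin, but *nlp-34* reached 478, 968 and 46.3 FPKM in *cec-4* larvae without auxin. Over 177 immune effectors, 10 rose and 3 fell, where 4.76% of all genes were called. On the X 5 of 15 rose, where 14.6% of all genes did, and on autosomes 5 of 162 rose, where 0.712% did. Those that rose include the C-type lectin *clec-42* (log2 fold change 2.04, SE 0.39, adjusted p = 0.00463) and X-linked *irg-7* (log2 fold change 1.04, SE 0.23, adjusted p = 0.00850). With 1 library left out, between 1 and 3 peptide genes were called as higher, with the fewest without *cec-4* replicate 3, and *cnc-10* lost its call there.

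Of 123 neuropeptide genes 12 rose and 1 fell. On the X 8 of 32 rose, where 14.6% of all genes did, and on autosomes 4 of 91 rose, where 0.712% did, of which 3 are the epidermal *nlp-27*, *nlp-29* and *nlp-34*. The 32 X-linked neuropeptide genes had a median of 0.82 and the 91 autosomal ones a median of -0.17, close to the medians of all genes of their class at 0.70 and -0.13. The FMRFamide-like genes *flp-32* and *flp-7*, which encode signalling peptides of neurons, were those with the smallest adjusted p-values on the X. The first had 161, 161 and 147 FPKM in depleted larvae against 56.2, 48.4 and 59.9 FPKM in *cec-4* larvae (log2 fold change 1.51, SE 0.30, adjusted p = 0.00558), and the second had 92.2, 97.6 and 132 FPKM in depleted larvae against 49.6, 27.98 and 37.1 FPKM in *cec-4* larvae (log2 fold change 1.51, SE 0.31, adjusted p = 0.00593). The X-linked *unc-18*, whose Munc18 product is required for synaptic vesicle release, had 192, 199 and 185 FPKM in depleted larvae and 65.5, 66.4 and 59.5 FPKM in *cec-4* larvae (log2 fold change 1.59, SE 0.24, adjusted p = 0.000489). Its level without auxin was 139, 149 and 55.0 FPKM in *TIR-1; dpy-27::AID; cec-4* larvae, so that replicates 1 and 2 of that strain were above *cec-4* larvae at 51.1, 50.6 and 69.7 FPKM. Neuropeptide calls ranged from 5 to 11 higher genes with 1 library left out, with 5 without depleted replicate 3 and 6 without *cec-4* replicate 2 or 3. The X-linked actin gene *act-4* (log2 fold change 0.84, SE 0.22, adjusted p = 0.0236) was the only one called of 32 muscle genes, and X-linked *rpl-25.1* (log2 fold change 0.99, SE 0.23, adjusted p = 0.0134) the only one of 77 ribosomal protein genes, and both lost their calls without *cec-4* replicate 2 or 3. Actin genes are nearly identical in sequence, so reads of *act-4* may be shared with the other actins.

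Of 17 genes of sulfur amino acid metabolism 2 rose, both X-linked, and 3 autosomal ones fell, while 12 were not called (4.76% of all genes were called). The X-linked *cbs-1*, a cystathionine beta-synthase that commits homocysteine to cysteine synthesis, rose to 148, 92.7 and 75.7 FPKM in depleted larvae, against 36.1, 19.9 and 32.9 FPKM in *cec-4* larvae (log2 fold change 1.82, SE 0.35, adjusted p = 0.00482). The autosomal methionine synthase gene *metr-1* was at 82.0, 109 and 103 FPKM in depleted larvae and 219, 241 and 247 FPKM in *cec-4* larvae (log2 fold change -1.27, SE 0.26, adjusted p = 0.00577), and the S-adenosylhomocysteine hydrolase gene *ahcy-1* at 1688, 1532 and 1375 FPKM in depleted larvae and 3381, 4063 and 3994 FPKM in *cec-4* larvae (log2 fold change -1.32, SE 0.32, adjusted p = 0.0180). In these enzymes the groups did not overlap. Cysteine synthase gene *cysl-2*, which is induced through the hypoxia pathway, fell to 31.3, 41.9 and 33.8 FPKM in depleted larvae, against 110.3, 190.4 and 188 FPKM in *cec-4* larvae (log2 fold change -2.16, SE 0.45, adjusted p = 0.00649). The other gene that rose was *sams-1* (log2 fold change 0.66, SE 0.19, adjusted p = 0.0485), named after its values had been seen. The median of the 13 autosomal members was -0.71. For *cth-1*, a cystathionine gamma-lyase, the test was not passed (log2 fold change -1.07, SE 0.39, adjusted p = 0.120), with 63.7, 74.8 and 67.9 FPKM in depleted larvae and 72.6, 209 and 198 FPKM in *cec-4* larvae. Without auxin it had 43.4, 46.4 and 67.6 FPKM in *TIR-1; dpy-27::AID; cec-4* larvae and 20.5, 41.5 and 14.1 FPKM in *cec-4* larvae. With *cec-4* replicate 2, *cec-4* replicate 3, depleted replicate 2 or depleted replicate 3 left out, *ahcy-1* lost its call, and *cbs-1* lost it when only the 6 libraries were fitted.

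Among digestive proteases 3 of 19 genes rose, and 7 of 150 detoxifying enzymes were called, where 4.76% of all genes were. X-linked *asp-4*, a lysosomal aspartyl protease, had 567, 574 and 600.3 FPKM in depleted larvae and 268, 246 and 256 FPKM in *cec-4* larvae (log2 fold change 1.18, SE 0.21, adjusted p = 0.00256). Of 27 intestinal genes 3 rose, with *cpr-4* (1.48) and *asp-17* (3.23) on chromosome V as the others, and 1 fell, the gut esterase gene *ges-1* (log2 fold change -1.12, SE 0.29, adjusted p = 0.0227). Of 150 genes for cytochromes P450, UDP-glucuronosyltransferases and glutathione S-transferases, the 3 that rose are X-linked and the 4 that fell autosomal. They include *gst-11*, which had 28.7, 29.3 and 33.5 FPKM in depleted larvae and 12.8, 9.85 and 9.05 FPKM in *cec-4* larvae (log2 fold change 1.53, SE 0.37, adjusted p = 0.0150), and *ugt-23* (log2 fold change 1.12, SE 0.26, adjusted p = 0.0131). The autosomal *gst-21* was at 0.136, 0 and 0 FPKM in depleted larvae and 2.97, 4.54 and 5.57 FPKM in *cec-4* larvae (log2 fold change -5.02, SE 0.999, adjusted p = 0.00553). In lipid metabolism, beside *fard-1*, the desaturase gene *fat-2* fell (log2 fold change -0.64, SE 0.15, adjusted p = 0.0143), with 610.1, 634 and 622 FPKM in depleted larvae and 904, 1034 and 969 FPKM in *cec-4* larvae. It was lower in the strain without auxin too, at 529, 574 and 571 FPKM in *TIR-1; dpy-27::AID; cec-4* larvae against 952, 1203 and 870.4 FPKM in *cec-4* larvae (log2 fold change -0.84, adjusted p = 0.0316). Both X-linked astacin metalloprotease genes that were called rose, and *nas-10* had 24.9, 38.6 and 41.2 FPKM in depleted larvae and 0.295, 0 and 0.504 FPKM in *cec-4* larvae (log2 fold change 6.89, SE 1.32, adjusted p = 0.00454). Of 179 nuclear hormone receptors 2 rose, X-linked *nhr-35* (1.52) and *nhr-3* (1.04), and 4 fell, among them *nhr-105* (-1.44) and *nhr-74* (-4.40). Of 43 homeobox genes X-linked *ceh-41* rose (1.21), and of 91 F-box genes *fbxa-89* rose (3.87) and *fbxa-6* fell (-1.94), and each of these 7 lost its call without *cec-4* replicate 2. The calls of *cpr-4*, *asp-17*, *ges-1*, *gst-11*, *ugt-23*, *fat-2* and *nas-33* were each lost without *cec-4* replicate 2, and with the exception of *nas-33* also without *cec-4* replicate 3.

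Histone genes had the second lowest autosomal median of the lists, at -1.17 over 46 genes. Those called were *his-45*, with 1.09, 1.27 and 1.75 FPKM in depleted larvae and 16.46, 21.4 and 14.8 FPKM in *cec-4* larvae (log2 fold change -3.59, SE 0.79, adjusted p = 0.00885), *his-52* (log2 fold change -2.54, SE 0.64, adjusted p = 0.0193) and *his-50*, which was listed at 0 in every depleted library and at 10.9, 31.1 and 33.4 FPKM in *cec-4* larvae (adjusted p = 0.0116). The call of *his-45* held with any 1 library left out, and those of *his-52* and *his-50* did not without *cec-4* replicate 2 or 3. These are replication-dependent histones, which mostly lack poly(A) tails and lie in near-identical copies, so levels in poly(A) libraries are uncertain and reads may be shared. The replacement histone H3.3 gene *his-71*, X-linked and polyadenylated, rose (log2 fold change 0.88, SE 0.24, adjusted p = 0.0310), but lost its call with any of the 6 libraries left out. Between 1 and 5 histone genes fell with 1 library left out, with 1 without *cec-4* replicate 2 or 3 and 5 without depleted replicate 2, and the autosomal median ranged from -1.35 to -0.60. Among genes of proliferating cells none was called, where 4.76% of all genes were, and lists this short can hold none. By limma 0 of 13 replication genes were called (1 at an unadjusted p-value under 0.05), with a median of -0.23, and 0 of 28 germline genes (none at an unadjusted p-value under 0.05), with a median of -0.28. Summed germline markers were at 63.9 to 101 FPKM in depleted larvae and 97.3 to 117 FPKM in *cec-4* larvae, which overlap. Of 33 proteasome genes 0 were called (5 at an unadjusted p-value under 0.05), although 28 were below 0, with a median of -0.29. Without overlap between groups, 13 of them were lower and 1 was higher, where 12.9% and 13.1% of all genes were. The mitochondrial chaperone gene *hsp-60* fell (log2 fold change -1.30, SE 0.36, adjusted p = 0.0341), with 228, 46.1 and 146 FPKM in depleted larvae, where replicate 2 stands apart, and 316, 272 and 268 FPKM in *cec-4* larvae, and lost this call with *cec-4* replicate 1, 2 or 3 or depleted replicate 2 left out.

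**Figure D5:**
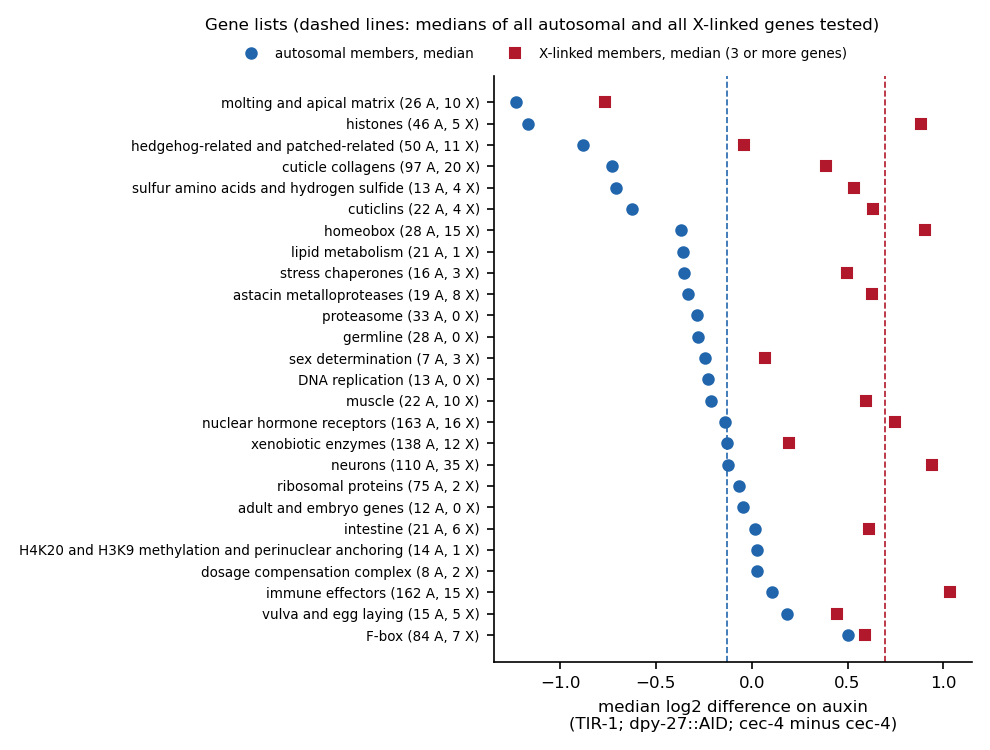
Median log2 difference on auxin between *TIR-1; dpy-27::AID; cec-4* and *cec-4* larvae for the members of each gene list, with autosomal members as blue circles and X-linked members as red squares (lists with 3 or more X-linked genes). Dashed lines are the medians of all autosomal genes (-0.13) and all X-linked genes (0.70). Molting and apical matrix genes have the lowest medians, at -1.23 on autosomes and -0.76 on the X.

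The dosage compensation machinery itself was not called at the level of transcripts. None of the 10 genes of the complex passed limma's test, and 2 had an unadjusted p-value under 0.05. The counts of 0 in this paragraph stand beside 4.76% of all genes called, so lists this short would often hold none. The degron acts on the protein, so the transcript of *dpy-27* does not check depletion, and its levels were 25.4, 31.7 and 33.8 FPKM in depleted larvae and 34.9, 30.1 and 35.5 FPKM in *cec-4* larvae (log2 fold change -0.15, SE 0.18, adjusted p = 0.744). The other condensin subunits *mix-1*, *capg-1*, *dpy-26* and *dpy-28* had log2 fold changes between -0.11 and 0.10, and *dpy-21*, which encodes the demethylase of H4K20me2, had 0.24. Of the recruiting proteins, X-linked *sdc-2*, which first targets the X, was at 10.8, 13.5 and 12.3 FPKM in depleted larvae and 6.49, 7.56 and 6.497 FPKM in *cec-4* larvae (log2 fold change 0.82, SE 0.31, adjusted p = 0.131). The 3 depleted libraries were above the 3 *cec-4* libraries, and the difference was near the X-linked median. The others gave 0.12 for *sdc-3*, 0.51 for *dpy-30* and 0.56 for *sdc-1*, which was detected at low level only. None of 15 genes for H4K20 and H3K9 methylation and perinuclear anchoring was called (2 at an unadjusted p-value under 0.05), and the H4K20 methyltransferase genes *set-1* (0.04) and *set-4* (0.34) were among them. In sex determination 0 of 10 genes were called (2 at an unadjusted p-value under 0.05), and the male-determining *her-1* was listed at 0 in 5 of the 6 libraries. The deleted *cec-4* gene was listed at 0, 5.69 and 0 FPKM in depleted larvae and at 0, 0 and 5.24 FPKM in *cec-4* larvae, so 1 library of each group held reads assigned to it. The cause was not tested.

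The same strain difference was also taken in the libraries without auxin, which share no library with the comparison. The authors report that DPY-27 staining in this degron strain was already somewhat below wild type before auxin. This pair therefore does not fully separate the strain from depletion, and whether it holds part of the depletion was not tested. In the pair without auxin 5 genes were called (0.0376%), namely *F30A10.11*, *F30A10.14*, *Y71G12B.18*, *F22F4.4* and *fat-2*, of which *Y71G12B.18* was named after its values had been seen. Without auxin the X-linked median was 0.18 and the autosomal one 0.02. Of the 301 genes on the X that rose with auxin, 187 (62.1%) were above 0 without auxin, with a median of 0.13, and over all X-linked genes it was 63.3%, with a median of 0.18. Of the 248 autosomal genes that fell on auxin, 176 (71.0%) were above 0 without auxin, with a median of 0.23, against 51.6% of all autosomal genes, with a median of 0.02. The count of 5 was 2 without replicate 1 of either strain off auxin, and 3 without replicate 2 or 3 of *TIR-1; dpy-27::AID; cec-4* off auxin. The strain difference itself differed between treatments for 92 genes by limma's interaction test (0.691%), with 24 X-linked genes more and 1 less positive on auxin, and 7 autosomal genes more and 60 less. All of the 24 are among the 301 genes that rose, and 52 of the 60 are among the 248 that fell. The interaction contains the main comparison, so this overlap is partly built in and is no separate support. For *glit-1* the interaction was 2.57 (adjusted p = 0.00174), with 12.06, 11.1 and 17.7 FPKM in *TIR-1; dpy-27::AID; cec-4* larvae and 18.8, 30.1 and 21.8 FPKM in *cec-4* larvae without auxin. The count of 92 was 159, 42 and 26 without *cec-4* replicates 1, 2 and 3 on auxin, 49 and 224 without *cec-4* replicates 1 and 3 off auxin, and 39 and 45 without replicates 1 and 2 of *TIR-1; dpy-27::AID; cec-4* off auxin.

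Depletion with CEC-4 intact was set beside these values, from *TIR-1; dpy-27::AID* larvae against *dpy-27::AID* larvae, 3 libraries each and all on auxin. In that pair the control carries the degron tag, and no library is shared. The X-linked median was 0.46 and the autosomal one -0.07, and 174 genes were called (1.31%), among them 59 X-linked genes that rose and 99 autosomal genes that fell. Replicate 3 of *dpy-27::AID* had an X:A score of 0.43, against -0.34 and -0.37 in its other replicates and 0.39, 0.46 and 0.47 in *TIR-1; dpy-27::AID*. *F30A10.11* and *F30A10.14* were listed at 0 in it. Without this library the X-linked median was 0.69 and the autosomal one -0.11, and 304 genes were called, while 86 and 57 were called without its replicates 1 and 2, and 95 and 72 without replicates 1 and 2 of *TIR-1; dpy-27::AID*. Among the 301 that rose on the X in larvae lacking CEC-4, 286 (95.02%) were above 0 with CEC-4 intact, at a median of 0.63, against 75.8% of all X-linked genes, at 0.46. Of the 248 autosomal genes that fell, 90 (36.3%) were above 0 with CEC-4 intact, against 43.4% of all autosomal genes, and 6 fell there. The difference between the 2 comparisons was called for 3 genes (0.0225%), *let-653*, *C48E7.1* and *F44E2.4*, each with a more negative value in larvae lacking CEC-4, where *C48E7.1* was named after its values had been seen. In larvae lacking CEC-4 *let-653* was at -1.63 and *F44E2.4* at -1.55. With CEC-4 intact they were above 0, at 1.17 for *let-653* and 0.49 for *F44E2.4*, and neither was called there. Between 0 and 8 genes were called for the difference between comparisons with 1 library left out, with none without *cec-4* replicate 2 and 8 without depleted replicate 1. In the X:A score the difference between comparisons was 0.33 (exact permutation test, p = 0.395). That test exchanges strain labels within each pair and so assumes no strain difference in either. It therefore cannot decide whether the depletion difference was the same with and without CEC-4. The median difference over X-linked genes was 0.24 with all libraries and 0.02 without replicate 3 of *dpy-27::AID*, so the size of this difference depends on that library. The depleted libraries themselves scored 0.50, 0.63 and 0.62 without CEC-4 and 0.39, 0.46 and 0.47 with it, without overlap, and these 2 strains were not tested against each other.

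The number of calls depends on single libraries as well. Leaving out *cec-4* replicate 2 gave 230 called genes and leaving out *cec-4* replicate 3 gave 218, against 633 with all libraries, and leaving out depleted replicate 2 or 3 gave 409 and 388. Without *cec-4* replicate 1 the count was 570, and without depleted replicate 1 it was 424. In all 6 of these fits 147 genes were called, of which 77 are X-linked and rose and 51 are autosomal and fell. X derepression lay between 0.81 and 0.87 in the same fits.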

How the data were processed

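The authors made strand-specific libraries from poly(A) RNA of whole L3 larvae, whose reads were trimmed with CutAdapt 2.3, checked with FastQC 0.11.8 and quantified on WBcel235 with Salmon 1.9.0. The authors deposited FPKM values for 21975 genes in 33 libraries. How they were computed is not given in the sources used here. Median-of-ratios factors were 1.02 in each of the 6 libraries, as for values already on that scale. Counts were not analysed here, and the DESeq2 1.42.0 tests of the study were not used. Positions come from Ensembl release 115.

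Log2(FPKM + 0.1) was fitted for 13309 genes (mean of 1 FPKM or more) with limma 3.58.1 (R 4.3.3) in all 33 libraries as 11 condition means, with a trend in the prior variance and Benjamini-Hochberg adjustment per comparison. Fold changes of low genes are understated on this scale. Tables were handled in Python 3.11.15 (numpy 2.4.6, pandas 2.3.3, matplotlib 3.10.9). The fit was tested on simulated data. Permutation tests were exact and two-sided, over 20 arrangements for 3 libraries against 3.

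Genes named are those without overlap and with the smallest adjusted p-values (8 X-linked higher, 3 X-linked lower, 6 autosomal higher, 8 autosomal lower), up to 4 called members per list, and 21 genes named for the series, unless stated. The comparison, the gene lists and the rule were chosen with earlier results of these data known. Alternatives were pseudocounts of 1 and 0.01, no filter or a mean FPKM of at least 5, 2 other scalings, fitting only the conditions compared, a replicate block, and leaving out each library. Equal FPKM sums, removal of called genes with a group at 0, and the CEC-4 intact pair without replicate 3 of *dpy-27::AID* were alternatives chosen after seeing the data.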

Additional observations from a re-analysis of the deposited data

Results flagged for a closer look

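In 27 of the 89 named genes that were tested, the difference between *TIR-1; dpy-27::AID; cec-4* and *cec-4* larvae on auxin differed from that without auxin by limma's interaction test (adjusted p-value under 0.05). Over all genes tested it did in 92 of 13309 (0.691%). Each value is the log2 difference on auxin minus that without auxin. On the X it was 2.05 for *fard-1*, 1.32 for *fipr-21*, 4.49 for *Y41G9A.10*, 2.07 for *lec-8*, 2.57 for *glit-1*, and 3.02 for *T04F8.8*, with 1.35 for *F57G12.1* and 1.82 for *flp-32*. On autosomes it was 1.95 for *cri-2*, 1.903 for *ttr-18*, 2.01 for *zmp-3* and 1.80 for *nlp-27* among genes that rose. Among those that fell it was -2.52 for *pmp-5*, -4.97 for *srh-237*, -2.60 for *Y55D5A.4*, -2.75 for *cyp-23A1*, -1.99 for *F44E2.4*, -1.52 for *dpy-18* and -2.84 for *T05E12.6*. In the molting epidermis it was -6.42 for *col-133*, -2.31 for *let-653*, -2.50 for *wrt-10* and -1.80 for *ptr-25*, and elsewhere -1.85 for *ges-1*, -5.85 for *gst-21* and -2.67 for *cysl-2*. For *mtx-2* it was -9.12, a size that depends on the 0.1 added, because the gene was listed at 0 in all depleted libraries. The interaction shares the libraries of the main comparison and is not independent of it. Most named genes were picked by their p-value in that comparison, so their larger share is partly built in. The depletion difference without CEC-4 minus that with CEC-4 intact was called for 3 genes, with -2.81 for *let-653*, -1.60 for *C48E7.1* and -2.03 for *F44E2.4*. Groups of 3 libraries were too small for a test of single libraries that stand apart.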

How the results depend on the processing

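The 633 called genes became between 515 and 710 under the other pseudocounts, filters and scalings, in a fit of the 6 libraries alone or without genes that had a group listed at 0, but between 218 and 570 with 1 library left out. Over the same libraries left out, X-linked genes that rose numbered 119 to 231 and X-linked genes that fell 0 to 7, and autosomal genes that rose numbered 27 to 85 and those that fell 72 to 247. Without the filter on low values 2 X-linked genes fell. X derepression was 0.75 with a pseudocount of 1 and 0.63 without the filter, and 0.81 to 0.87 with 1 library left out. Genes called for the strain difference without auxin numbered 8 without the filter, 2 with equal FPKM sums, 3 with only the conditions compared, and 2 to 7 with 1 library left out. The interaction gave 26 to 224 called genes with 1 library left out. With CEC-4 intact 76 genes were called with only the conditions compared and 57 to 304 with 1 library left out, and the difference between both depletions gave 17 with equal FPKM sums, 16 with only the conditions compared, and 0 to 8 with 1 library left out. Causes were not tested. The replicate numbers did not pair the libraries, since deviations of same-numbered libraries correlated between -0.040 and 0.032, and with the replicate number as a block 618 genes were called. No named gene that was called changed direction, but *cec-4*, *dpy-26*, *dpy-28*, *mix-1*, *sdc-3* and *set-1*, none of them called, changed sign under at least 1 alternative. Of 73 named genes that were called, 37 kept their call throughout. With 3 libraries per group, small changes and genes under 5 FPKM are poorly resolved, and an exact test of 3 libraries against 3 cannot go below 0.10.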

Other observations

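The transthyretin-like family, chosen after its values had been seen, gave 12 called genes of 47 tested, all of which rose, where 4.76% of all genes were called. These secreted proteins are distantly related to vertebrate transthyretin, and most have no assigned role. Of 11 X-linked members 6 rose, with a median log2 fold change of 1.69 against 0.70 for all X-linked genes, and of 36 autosomal members 6 rose, with a median of 0.17 against -0.13 for all autosomal genes. Without auxin the medians of the family were -0.06 on the X and -0.08 on autosomes. With CEC-4 intact they were 0.18 on the X and -0.13 on autosomes, against 0.46 and -0.07 for all genes of each class. The levels of *ttr-59* were 329, 446 and 479 FPKM in depleted larvae and 107, 37.8 and 49.9 FPKM in *cec-4* larvae (log2 fold change 2.81, SE 0.50, adjusted p = 0.00225), and those of *ttr-6* were 652, 725 and 898 FPKM in depleted larvae and 254, 241 and 205 FPKM in *cec-4* larvae (log2 fold change 1.69, SE 0.27, adjusted p = 0.000905).

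Several named genes that were called lie next to each other and moved in one direction. The gap between *fipr-21* and *cnc-8* on the X is 1727 bases, that between *glit-1* and *rpl-25.1* is 97 bases, and that between *T05E12.6* and *srh-237* on chromosome V is 936 bases. The genes *dpy-10* and *dpy-2* are 2064 bases apart, and *noah-2* and *col-133* are 1698 bases apart.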
